A study of Homo sapiens with 54 samples.

Results

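Cytosolic ribosomal protein genes encode the protein parts of the ribosome that works in the cytoplasm. They were taken by symbol: RPLP0, RPLP1, RPLP2, RPSA, and RPL or RPS followed by a number and at most 1 letter, without pseudogenes, the Y-linked copies and the RPS6K kinases. Such a symbol was held by 81 of the 58735 genes measured in bulk. RPL3L (mean 0.074 TPM, highest library 0.66 TPM) and RPL10L (mean 0.096 TPM, highest library 1.48 TPM) lay under a mean of 1 TPM and were left out, which gave 79 members, 32 of the small and 47 of the large subunit. All 79 passed the low-value filter of each bulk fit. All 79 also had counts in the single-cell matrices.

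The series concerns macrophages grown from H1, an established human embryonic stem cell line, in a porous 3D microscaffold and in flat 2D culture. Of its 54 samples, 32 are bulk RNA libraries and 3 are droplet single-cell RNA libraries. The chromatin libraries (8 by ATAC-seq and 11 by ChIP-seq) were not analysed here. All cells carry the 1 genotype of that line, and the labels name no other allele. The bulk groups were 2D day 12 and 3D day 12 (4 libraries each) and 3D days 16, 19 and 23, each without and with FBS in the title (3 libraries each). Further 3D groups were SP6A and SP14, time-point labels whose meaning the labels do not give, and E. coli, for which no day is given (2 libraries each). The single-cell libraries came from 3D days 7, 9 and 12, with 1 library a day. The labels do not say whether replicates were separate cultures, so p-values speak for the spread of these samples alone, which may be technical.

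The ribosome consists of a small subunit, which reads the messenger RNA, and a large subunit, which joins the amino acids. The P proteins RPLP0, RPLP1 and RPLP2 form the stalk that recruits the elongation factors. Messenger RNAs of nearly all ribosomal proteins are TOP mRNAs: they begin with a C followed by a run of pyrimidines, and the kinase mTOR controls their translation and LARP1 binds and stores them. Some members have known roles beside this one. RPL5 and RPL11 bind MDM2 and thereby stabilise p53 when ribosome assembly is disturbed, and mutations in RPS19 and several other members cause Diamond-Blackfan anaemia, a failure of red cell production. RPS27L is a p53-inducible paralogue of RPS27, and RPL39L is a tissue-restricted paralogue of RPL39.

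The start of the mRNA is shown for members on which the results turn, because the pyrimidine run there is the mark of this gene class. Each line gives 30 bases of the sense strand, 15 on either side of a transcription start in RefSeq (build GRCh38.p14), with the run in capitals where it begins within 5 bases of the start.
RPS27: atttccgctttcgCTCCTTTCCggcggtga
RPL35: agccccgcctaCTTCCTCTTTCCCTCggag
RPLP2: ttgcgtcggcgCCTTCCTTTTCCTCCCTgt
RPL31: acaatccttcgcgCTCTTCCTTTCCaactt
RPS28: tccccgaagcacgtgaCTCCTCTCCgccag
RPS27L: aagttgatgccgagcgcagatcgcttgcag
RPS26: gagacacataacctcgattttcttccgcca
RPL9: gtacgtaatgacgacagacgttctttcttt
These windows lie at chr1:153990747-153990776 (RPS27, plus strand), chr9:124861943-124861972 (RPL35, minus), chr11:809952-809981 (RPLP2, plus) and chr2:101002274-101002303 (RPL31, plus). The others lie at chr19:8321481-8321510 (RPS28, plus), chr15:63157463-63157492 (RPS27L, minus), chr12:56041903-56041932 (RPS26, plus) and chr4:39458908-39458937 (RPL9, minus). RPS27L, RPS26 and RPL9 have no capitals, which says only that no such run begins within 5 bases of the start shown; a run farther from it is not marked. The RefSeq promoter table held 63 of the 79 members. A run of at least 5 bases that opens with C and goes on with C or T was present at a listed start of 52 of the 63 (82.5%) and in 6902 of all 35116 promoters (19.7%). On the opposite strand the shares were 11.1% and 17.5%. The members without it were RPL15, RPL17, RPL27, RPL4, RPL6, RPL9, RPS15, RPS26, RPS27L, RPS29 and RPS4X. Within 300 bases (250 before the start and 50 after it, both strands) CTTTCC, which can overlap the pyrimidine run, stood in 47.6% of the members and 26.3% of all promoters. CCGGAAG, letters that ETS factors bind, stood in 36.5% and 10.3%, and AAGATGG, letters of a YY1 motif, in 12.7% and 5.84%. TATAAA, the TATA box, stood in 7.94% of the members and 11.5% of all promoters. A match is a description of letters and not a shown binding site.

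The cells bore macrophage RNA in every group: all 15 macrophage markers were above 0, with sums from 10710 to 11790 TPM in 2D day 12 to 22830 to 23860 TPM in SP6A. The depth of the bulk libraries is unknown, since TPM keep no read totals. Between 11860 and 13260 genes reached 1 TPM per library outside the E. coli group, and 8103 and 7954 in that group, whose libraries also agreed least with each other (Pearson r 0.775 over log2 values, against 0.943 or more in all other replicate pairs). Replicate 4 of 3D day 12 stood apart in the members. Member counts of 3D against 2D, the later days, SP6A and SP14 are also given without it, and results of single genes only in part. Clone-named here means FP236383.2, FP236383.3 and FP671120.3 alone, and other genes named after genomic clones were kept throughout. These genes took 0.373 to 0.516% of the TPM in 2D, 5.55 to 10.5% in 3D day 12 and up to 32.3% at day 19 with FBS. They leave less of the TPM total for other genes, and shares and counts are therefore also given without them and without mitochondrial genes. TPM is normalised for transcript length, but the tool behind the TPM is not given. The order of members by TPM therefore holds for these values only and may differ by platform. Reads of near-identical pseudogenes, of which 1133 carry a ribosomal protein symbol, could be split from the members in ways the table does not show. Pseudogenes held 0.348 to 0.399% of the TPM in 2D and 0.106 to 0.134% in the E. coli group.

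Ribosomal protein mRNA took the largest share of the TPM in 2D culture and the smallest in the E. coli and SP14 groups. The 79 members together held 17.3, 16.5, 16.1 and 16.4% of the TPM in the 2D day 12 libraries. In 3D day 12 they held 15.6, 14.6, 14.7 and, in replicate 4, 9.79%. All 3D day 12 libraries thus lay under all 2D libraries. The share was 8.64, 8.63 and 8.07% at day 16, 8.06, 9.02 and 9.19% at day 19 and 11.99, 11.1 and 11.5% at day 23, so that day 23 lay above days 16 and 19 without overlap. With FBS it was 8.21, 8.36 and 8.84% at day 16, 6.69, 6.25 and 6.68% at day 19 and 5.55, 5.85 and 5.68% at day 23. At day 16 the libraries with and without FBS overlapped, and at days 19 and 23 every FBS library lay lower. SP6A libraries held 7.38 and 6.99%, SP14 libraries 5.26 and 5.10%, and E. coli libraries 5.35 and 4.47%. These last 2 groups overlapped. Without the clone-named and mitochondrial genes the share was 16.9 to 18.3% in 2D, 12.1 to 18.2% in 3D day 12, 9.94 to 11.8% at day 16, 14.8 to 15.1% at day 23 and 7.56 to 7.75% at day 23 with FBS, and 2D and 3D day 12 then overlapped. At day 19 it was then 10.2, 12.3 and 12.7% without FBS and 10.3, 10.0 and 9.74% with it, which overlapped too. In bulk RNA, fewer cells of a type and less RNA per cell cannot be told apart.

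**Figure D1:**
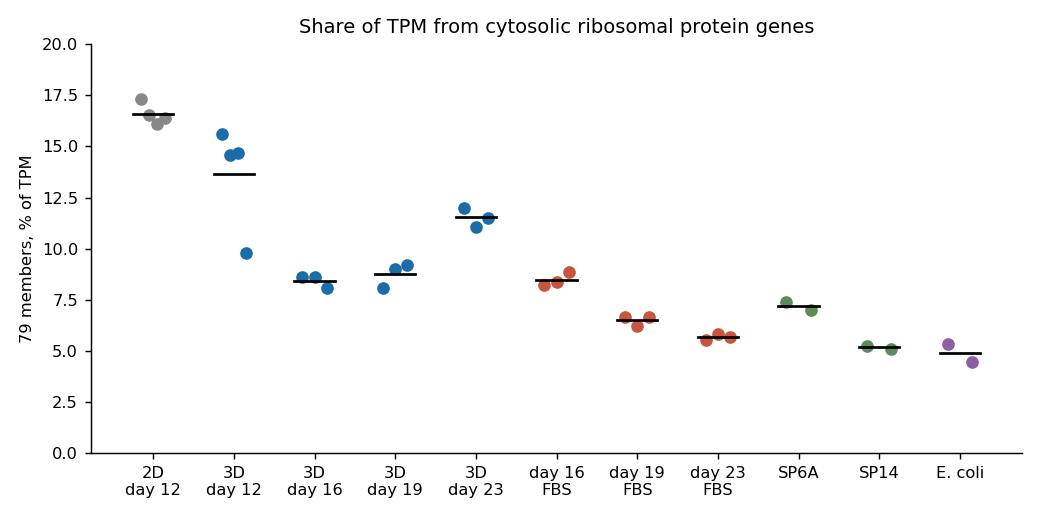
Each point is 1 bulk library and each bar the mean of a group; the vertical axis is the percent of TPM held by the 79 members. The 2D libraries lie between 16.1 and 17.3%, the third highest group mean is day 23 without FBS at 11.5%, and replicate 4 of 3D day 12 lies at 9.79%, away from the other 3 of its group.

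Single members differed widely in level. Over all 32 libraries the highest means were RPS27 at 4217 TPM, RPS19 at 3151 TPM, RPL41, the smallest ribosomal protein, at 2984 TPM, RPL13 at 2674 TPM and RPS29 at 2628 TPM. The lowest were RPS4X at 333.6 TPM, RPL14 at 270.3 TPM, RPS27L at 210.5 TPM, RPL22 at 146.7 TPM and RPL39L at 24.4 TPM. The sum over small subunit members stood to the sum over large subunit members as 0.705 to 0.831 in every library. RPS27, a zinc finger protein of the small subunit, made up 1.86 to 2.20% of the members' TPM in 2D, 2.99 to 3.47% in 3D day 12, 5.10 to 5.599% at day 16 and 7.86 to 8.96% at day 16 with FBS.

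At day 12 the 3D and 2D libraries are compared to ask what the scaffold changes. Of the 79 members 5 rose and 28 fell in 3D by limma's moderated test on log2(TPM + 1), where a call needs an adjusted p under 0.05. Over all 13131 genes tested, 13.5% rose and 25.2% fell. The members' median change was -0.15 on the log2 scale and that of all genes -0.21. The direction of the members' median turned to 0.064 when libraries were scaled by the median ratio of their genes and to 0.026 without clone-named and mitochondrial genes. These settings moved the median of all genes by 0.17 and 0.14, and the members' median less that of all genes went from 0.065 to 0.11 and 0.10. With median-ratio scaling 15 members rose and 17 fell, against 2427 up and 2612 down of 13131 genes. Without replicate 4 of 3D day 12, 25 members rose and 29 fell, against 1512 up and 2984 down of 13189 genes. Small subunit members counted 3 up and 13 down of 32, and large subunit members 2 up and 15 down of 47.

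RPS2, a small subunit protein near the mRNA entry, had 5254, 5899.5, 5093 and 5510.3 TPM in 2D and 3001, 2538, 2399 and 1858 TPM in 3D. Every 3D library lay under every 2D library, and the log2 change was -1.17 ± 0.13 (SE, limma adjusted p = 9.99e-05). RPLP2 of the stalk had 3239, 2554, 2667 and 2884 TPM in 2D and 1570.3, 1473, 1418 and 1136 TPM in 3D, also without overlap (log2 change -1.02 ± 0.12, SE, limma adjusted p = 0.000111). The other stalk proteins changed less. RPLP1 changed by -0.48 ± 0.13 (SE, limma adjusted p = 0.0129), and RPLP0, with 2173, 2341, 2182 and 2206 TPM in 2D and 1887, 1962, 1988 and 1439.6 TPM in 3D, by -0.30 ± 0.11 (SE, limma adjusted p = 0.0453). Under median-ratio scaling neither was called (adjusted p = 0.133 for RPLP1 and 0.522 for RPLP0), nor without clone-named and mitochondrial genes (0.0511 and 0.301). RPLP0 also lost its call without the filter (0.119), without any 1 of the 2D libraries (0.0728 to 0.105) and without replicate 1 of 3D (0.0597). RPSA, the laminin receptor precursor of the small subunit, fell, with a log2 change of -0.92 ± 0.13 (SE, limma adjusted p = 0.000421). RPS19, which is needed for the maturation of small subunit RNA, had 6495, 5998, 5970.4 and 6014 TPM in 2D and 5066, 4469, 4294 and 3143 TPM in 3D. It was lower in all 4 of the 3D libraries (log2 change -0.55 ± 0.13, SE, limma adjusted p = 0.00687), a call lost under median-ratio scaling (adjusted p = 0.0708). Of the MDM2-binding members RPL5 fell (log2 change -0.57 ± 0.087, SE, limma adjusted p = 0.000689) and RPL11 had a change of 0.21 ± 0.15 (SE, limma adjusted p = 0.29). RPL11 was called higher under median-ratio scaling (adjusted p = 0.0489), without clone-named and mitochondrial genes (0.0435) and without replicate 4 of 3D (0.0061).

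RPS27L, RPS27, RPS7, RPL30 and RPL32 rose. RPS27L had 129, 95.3, 109.8 and 88.5 TPM in 2D and 207, 152, 212 and 256 TPM in 3D. The highest 2D library lay under the lowest 3D library, and the log2 change was 0.95 ± 0.18 (SE, limma adjusted p = 0.00204). Its paralogue RPS27 had 3489, 3556, 3533 and 3051 TPM in 2D and 4796, 4672, 4388 and 3397 TPM in 3D, with replicate 4 of 3D inside the 2D range. The change of 0.33 ± 0.11 (SE, limma adjusted p = 0.0391) was lost without the low-value filter and in most fits that left out 1 library. RPS7, another MDM2-binding small subunit protein, had 784, 742, 879.7 and 688 TPM in 2D and 1266, 1210.1, 1294 and 1058 TPM in 3D. It rose without overlap by 0.64 ± 0.10 (SE, limma adjusted p = 0.000854) on the log2 scale. RPL30, a large subunit protein, had 950.0, 878, 955 and 905 TPM in 2D and 1698, 1777, 1762 and 1121 TPM in 3D, also without overlap (log2 change 0.76 ± 0.14, SE, limma adjusted p = 0.00211). RPL32, another large subunit protein, was named after its values were seen because it is the remaining call. It had 1088, 1046, 881 and 962 TPM in 2D and 1444, 1495, 1535 and 952 TPM in 3D, whose replicate 4 lay among the 2D libraries (log2 change 0.43 ± 0.15, SE, limma adjusted p = 0.0463). RPL32 had the highest adjusted p of the 5 increases. Only 3 of the 5 kept their call without the low-value filter. The same held in each fit that left out 1 library other than replicate 4 of 3D. RPL39L, with 44.1, 43.2, 55.4 and 39.1 TPM in 2D and 48.8, 51.9, 48.6 and 47.1 TPM in 3D, had overlapping groups and was not called. Markers of other cells moved with this contrast. The 10 megakaryocyte markers summed to 704.5 to 1237 TPM in 2D and 15.65 to 39.74 TPM in 3D, with 1 of 10 and 2 of 10 at 0. The 12 erythroid markers summed to 3427 to 4406 TPM and 27.67 to 1724 TPM, with 1 of 12 and 0 of 12 at 0. The 10 granulocyte progenitor markers summed to 1852 to 3177 TPM and 579.8 to 750.9 TPM. Their part in these results was not tested.

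**Figure D2:**
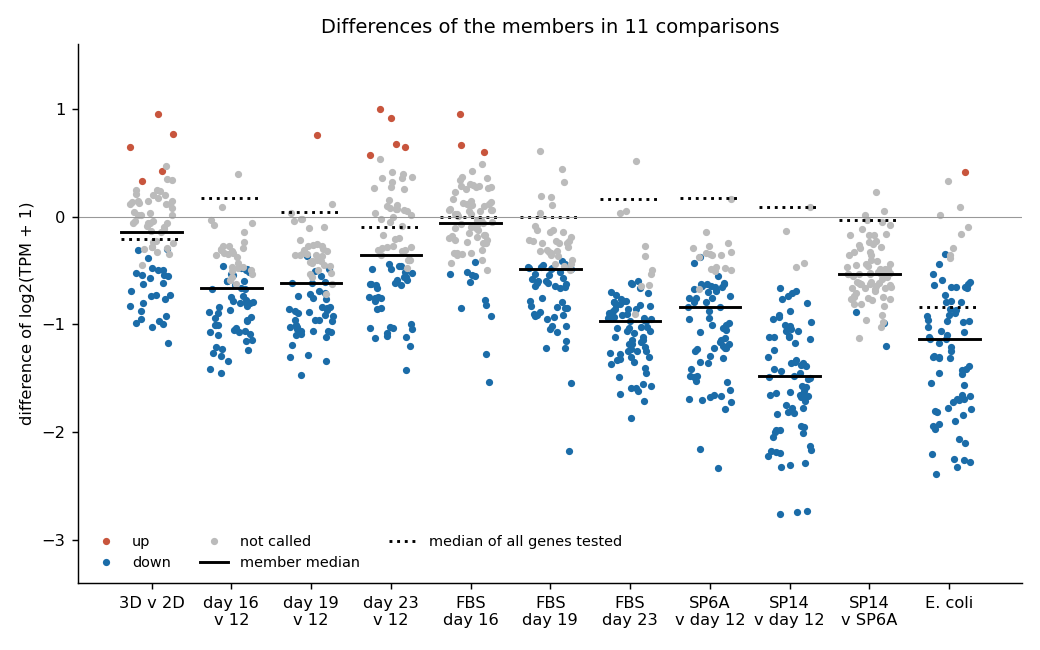
Each point is the difference of mean log2(TPM + 1) of 1 member in 1 of 11 comparisons, coloured by its call, with the members' median as a solid line and that of all genes tested as a dotted line. The members' median lies under that of all genes in 10 comparisons, from -0.06 with FBS at day 16 to -1.48 in SP14, and above it for 3D against 2D.

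Days 16, 19 and 23 without FBS were each compared with day 12 to follow the culture over time. They share the 4 day 12 libraries. At day 16, 0 members rose and 51 fell by limma, against 10.2% up and 6.65% down over 13384 genes. At an unadjusted p under 0.05 the counts were 0 and 62, a threshold at which no all-gene share was taken, here or below. The members' median was -0.66 and that of all genes 0.18. At day 19, 1 member rose and 43 fell (6.36% up and 5.82% down over all genes), with a median of -0.61 against 0.039. At day 23, 5 rose and 36 fell (10.5% up and 15.3% down over all genes), with a median of -0.35 against -0.10. Without replicate 4 of day 12, the counts of fallen members were 69, 65 and 48, against 810, 705 and 1746 of 13388 genes. Median-ratio scaling shifted the median of all genes by -0.26 at day 16 and -0.13 at day 19, and the members' median less that of all genes went from -0.84 to -0.94 and from -0.65 to -0.72. Of the small subunit 26 members fell at day 16, 22 at day 19 and 13 at day 23. Of the large subunit these were 25, 21 and 23.

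RPL35, a large subunit protein near the exit tunnel, had 3448, 3173, 2836 and 2459 TPM at day 12 and 1031, 1097 and 1127 TPM at day 16. Every day 16 library lay under every day 12 library, with a log2 change of -1.45 ± 0.15 (SE, limma adjusted p = 2.75e-07). It then had 890.2, 1169 and 1177 TPM at day 19 and 1852, 1726 and 1695 TPM at day 23, with changes of -1.47 and -0.75 that were both called (limma adjusted p = 2.81e-07 and 0.000615). RPS7 had 471, 424 and 461 TPM at day 16 and fell, with a log2 change of -1.41 ± 0.14 (SE, limma adjusted p = 9.75e-08), although it had been higher in 3D than in 2D at day 12. RPS21, a small subunit protein, changed by -1.29 ± 0.17 (SE, limma adjusted p = 7.63e-06) at day 16. RPSA fell, with a log2 change of -1.34 ± 0.15 (SE, limma adjusted p = 1.71e-06) at day 19, with 377, 428 and 455 TPM. RPS27 was not called at any of the 3 days. It had 4834, 4690.4 and 4116 TPM at day 16, 3876, 4377 and 4384 TPM at day 19 and 4187, 4280.2 and 4169.9 TPM at day 23, with 1 day 16 library above the highest of day 12 and all others inside its range.

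RPS27L was the member that rose at day 19. It had 207, 152, 212 and 256 TPM at day 12, 289, 247 and 269 TPM at day 16 and 373, 364 and 298 TPM at day 19, where all libraries lay above those of day 12 (log2 change 0.75 ± 0.22, SE, limma adjusted p = 0.0227). That call was lost under median-ratio scaling (adjusted p = 0.0529), and without replicate 2 of day 12 or replicate 1 or 2 of day 19.

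At day 23 the members did not move together. RPL9, a large subunit protein, had 831, 751, 742 and 484 TPM at day 12, 642, 568 and 472 TPM at day 16 and 1404, 1253 and 1476 TPM at day 23. The day 23 libraries were all above the others, and the change against day 12 was 0.997 ± 0.22 (SE, limma adjusted p = 0.00157). RPS28, a small subunit protein at the mRNA exit, had 2267, 2316, 2088 and 1932 TPM at day 12, 1413, 1353 and 1284 TPM at day 16 and 3698, 2879.5 and 3539 TPM at day 23. It fell at day 16 (log2 change -0.67 ± 0.12, SE, limma adjusted p = 0.000372) and rose at day 23 (log2 change 0.64 ± 0.12, SE, limma adjusted p = 0.00038). RPLP2 had 959, 1072 and 816 TPM at day 16 and 2816, 2478 and 2567 TPM at day 23, above all day 12 libraries (log2 change 0.91 ± 0.28, SE, limma adjusted p = 0.0192). Its call was lost without the filter, without replicate 4 of day 12 and without replicate 1 of day 23. The large subunit proteins RPL37A (log2 change 0.67 ± 0.19, SE, limma adjusted p = 0.0105) and RPL4 (log2 change 0.57 ± 0.13, SE, limma adjusted p = 0.00197) were the other increases. Against them stood RPL14, RPL11, RPS26 and RPL15. RPL15, a large subunit protein, had 2262, 2261, 2261 and 1875 TPM at day 12 and 1083, 1037 and 952 TPM at day 23, without overlap (log2 change -1.08 ± 0.11, SE, limma adjusted p = 8.81e-08). RPL11 had 1937, 1863, 1882 and 1226 TPM and 856, 717 and 764 TPM (log2 change -1.13 ± 0.14, SE, limma adjusted p = 2.34e-06). RPL14 had 494, 532, 657 and 295 TPM and 173, 169 and 187 TPM (log2 change -1.43 ± 0.26, SE, limma adjusted p = 0.000232). RPL39L had 18.2, 18.5 and 26.5 TPM at day 23, under all day 12 libraries (log2 change -1.20 ± 0.36, SE, limma adjusted p = 0.0172), a call lost without replicate 1 or 2 of day 23 (adjusted p = 0.0667 and 0.0615). The 10 markers of dividing cells summed to 763.4 to 972.9 TPM at day 12, 97.43 to 144 TPM at day 16, 502.8 to 606.5 TPM at day 19 and 220.8 to 259.9 TPM at day 23, with none at 0. The 12 erythroid markers, 0 of 12 at 0 at day 12, were 11 of 12, 11 of 12 and 10 of 12 at 0 at the later days. Whether these cells account for part of the changes was not tested.

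**Figure D3:**
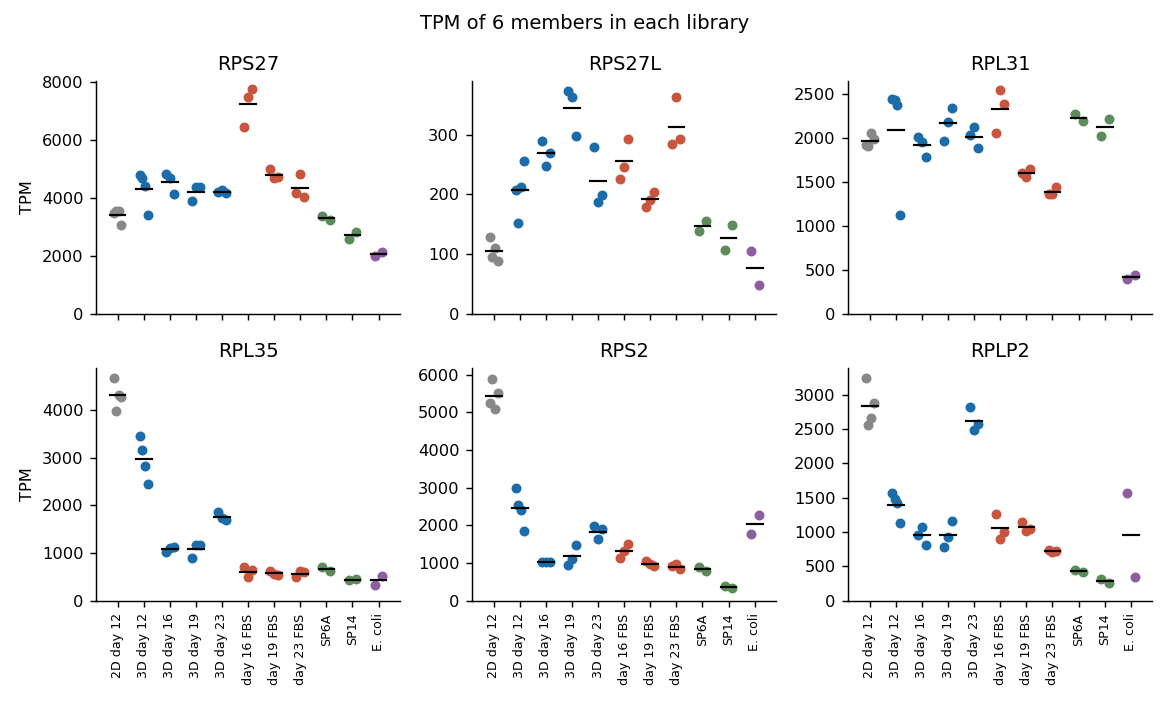
Each panel shows the TPM of 1 member in all 32 bulk libraries (points) with the group means (bars), on axes that start at 0. RPS27 is highest at day 16 with FBS (6451 to 7737 TPM), RPL31 in SP6A and SP14 lies under 3 of the 4 day 12 libraries and is at 392 and 441 TPM with E. coli, and RPL35 and RPS2 are highest in 2D and low in SP14 (426 and 444 TPM, and 401 and 328 TPM).

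Libraries with and without FBS were compared within each day. At day 16, 3 members rose and 12 fell (8.09% up and 10.4% down over all genes), and the members' median of -0.063 turned to 0.043 under median-ratio scaling and to 0.070 without clone-named and mitochondrial genes, against -0.005, 0.042 and 0.064 for all genes. At day 19, 0 rose and 46 fell by limma (12.9% up and 12.7% down over all genes), with a median of -0.48 against 0 for all genes. At an unadjusted p under 0.05 the counts were 2 and 52. At day 23, 0 rose and 69 fell (8.99% up and 5.11% down over all genes), with 1 and 73 at an unadjusted p under 0.05, and a median of -0.97 against 0.16. Leaving out the clone-named and mitochondrial genes gave 4 up and 28 down at day 19, against 2170 and 1358 of 13366 genes. By subunit, 29 of 32 small and 40 of 47 large subunit members fell at day 23.

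RPS27 had 4834, 4690.4 and 4116 TPM at day 16 and 6451, 7489 and 7737 TPM at day 16 with FBS, the highest level of any member in the table. Each FBS library lay above each library without it (log2 change 0.67 ± 0.10, SE, limma adjusted p = 8.39e-05). At day 19 it had 3876, 4377 and 4384 TPM and 4989, 4677 and 4711 TPM (log2 change 0.19 ± 0.10, SE, limma adjusted p = 0.203), and at day 23 4187, 4280.2 and 4169.9 TPM and 4175, 4804 and 4017 TPM (log2 change 0.036 ± 0.10, SE, limma adjusted p = 0.887), and neither was called. At day 19 every FBS library still lay above every library without it, and the difference was called without clone-named and mitochondrial genes (adjusted p = 0.00754). RPL9 and RPS28 rose with FBS at day 16 and fell with it at day 23. RPL9 had 642, 568 and 472 TPM and 1292, 923 and 1055 TPM at day 16 (log2 change 0.95 ± 0.23, SE, limma adjusted p = 0.00595). At day 23 it had 1404, 1253 and 1476 TPM and 433, 481 and 567 TPM (log2 change -1.48 ± 0.23, SE, limma adjusted p = 9.71e-05). At neither day did its groups overlap. RPS28 had 2161, 1885 and 2111 TPM with FBS at day 16 (log2 change 0.60 ± 0.13, SE, limma adjusted p = 0.00217) and 1039.9, 964 and 1069 TPM with FBS at day 23 (log2 change -1.71 ± 0.13, SE, limma adjusted p = 4.69e-09), the former above and the latter under all libraries of the same day without FBS.

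The decreases at day 16 were led by RPL39L and RPS26. RPL39L had 11.6, 28.5 and 34.3 TPM without and 8.46, 9.29 and 4.52 TPM with FBS at day 16, and 35.5, 35.6 and 35.1 TPM and 5.09, 4.0 and 16.4 TPM at day 19. All FBS libraries were lower (log2 change -1.53 ± 0.39, SE, limma adjusted p = 0.00733 at day 16 and -2.17 ± 0.39, SE, limma adjusted p = 0.000247 at day 19). The day 16 call was lost without replicate 3 of either group (adjusted p = 0.0589 and 0.051). RPS26, a small subunit protein of the mRNA exit, had 780.0, 734 and 777 TPM without and 289, 356 and 302 TPM with FBS at day 16, with no overlap (log2 change -1.28 ± 0.19, SE, limma adjusted p = 3.63e-05). RPLP0 had 1012, 1057 and 971 TPM and 523, 585 and 616 TPM at day 16 (log2 change -0.82 ± 0.15, SE, limma adjusted p = 0.000527). RPL10A, a large subunit protein of the L1 stalk, had 374, 396 and 396 TPM without and 161, 113 and 128 TPM with FBS at day 19 (log2 change -1.54 ± 0.21, SE, limma adjusted p = 9.8e-06). RPL15 had 1911, 1719 and 1426 TPM and 776, 660 and 727 TPM at day 19, also apart (log2 change -1.22 ± 0.11, SE, limma adjusted p = 5.47e-08), and at day 23 it was not called (log2 change 0.048 ± 0.11, SE, limma adjusted p = 0.852).

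At day 23 RPLP2 fell most. It had 2816, 2478 and 2567 TPM without and 733, 705 and 717 TPM with FBS (log2 change -1.86 ± 0.30, SE, limma adjusted p = 0.000123). RPL35 had 1852, 1726 and 1695 TPM and 488, 618 and 591 TPM (log2 change -1.64 ± 0.16, SE, limma adjusted p = 1.58e-07). In neither gene did the groups overlap. The 10 members without a call were RPL31, RPL28, RPL30, RPL39L, RPL15, RPS27, RPS27L, RPL14, RPS26 and RPL39. The granulocyte progenitor markers summed to 133.2 to 181.6 TPM at day 23 and 1260 to 1685 TPM with FBS, with 5 of 10 and 6 of 10 at 0, and those of dividing cells to 220.8 to 259.9 TPM and 70.33 to 220.6 TPM. At day 19 the granulocyte progenitor markers summed to 202.2 to 406.6 TPM without and 751.9 to 1208 TPM with FBS, those of dividing cells to 502.8 to 606.5 TPM and 123.8 to 301.7 TPM, and the endothelial markers to 119.9 to 184.6 TPM and 266.3 to 376 TPM. At day 16 the granulocyte progenitor markers summed to 397.6 to 495 TPM and 795.4 to 952.8 TPM. MPO, a marker on that list, had a mean of 0 TPM at days 16, 19 and 23 with and without FBS. AZU1, another, had means from 0.533 to 2.80 TPM. The granulocyte progenitor sums thus rest on other genes of the list, and a sum is not a count of cells. At day 19, 8 and 7 of the 11 endothelial markers were at 0. The part of any such cells was not tested.

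The FBS difference was itself compared between days by an interaction term. From day 16 to day 19 it changed in 1 member, RPL15, which went down, over 0.456% up and 0.262% down of all genes. From day 16 to day 23 it went up in 1 member, RPS26 (log2 change 1.006 ± 0.26, SE, limma adjusted p = 0.0144), and down in 50, over 7.66% and 3.50% of all genes, with a median of -0.89 for the members and 0.19 for all genes. From day 19 to day 23 it went up in 2, RPL15 and RPS27L (log2 change 1.353 ± 0.33, SE, limma adjusted p = 0.00808), and down in 29, over 8.21% and 4.59% of all genes. The drop of RPS28 from day 16 to day 23 was -2.31 ± 0.19 (SE, limma adjusted p = 2.22e-08). RPL9 had -2.44 ± 0.33 (SE, limma adjusted p = 3.38e-05).

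**Figure D4:**
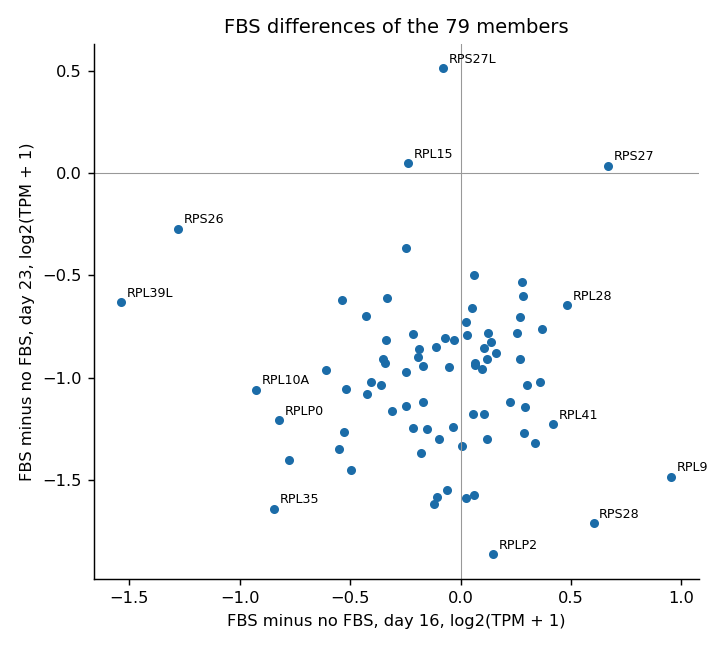
Each point is 1 of the 79 members, placed by its FBS difference in log2(TPM + 1) at day 16 (horizontal) and day 23 (vertical). RPL9, RPS28 and RPS27 lie farthest to the right, while 76 of the 79 members lie under 0 at day 23 and 43 lie left of 0 at day 16.

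SP6A and SP14 were compared with 3D day 12, whose libraries both comparisons share, and with each other. In SP6A 0 members rose and 62 fell by limma (16.9% up and 11.3% down over all genes; 0 and 65 at an unadjusted p under 0.05), with a median of -0.84 against 0.18 for all genes. In SP14 0 rose and 75 fell (18.1% up and 13.1% down over all genes; 0 and 76 unadjusted), with a median of -1.48 against 0.093. All 32 small subunit members and 43 of the 47 large subunit members fell in SP14. Without replicate 4 of day 12 the falls numbered 72 in SP6A and 75 in SP14, against 1406 and 1671 of 13388 genes. Median-ratio scaling moved the median of all genes by -0.24 and -0.23, and the members' median less that of all genes from -1.01 to -1.13 and from -1.57 to -1.69.

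RPL35, with 3448, 3173, 2836 and 2459 TPM at day 12, had 706 and 627 TPM in SP6A and 426 and 444 TPM in SP14 (log2 change -2.15 ± 0.17, SE, limma adjusted p = 1.59e-09 and -2.76 ± 0.17, SE, limma adjusted p = 2.68e-11). All of these lay under the day 12 libraries. RPS2 had 886 and 785 TPM in SP6A and 401 and 328 TPM in SP14 (log2 change -2.73 ± 0.17, SE, limma adjusted p = 3.49e-11 against day 12). RPLP2 had 316 and 251 TPM in SP14 (log2 change -2.30 ± 0.32, SE, limma adjusted p = 5.47e-06), and the stalk partners RPLP0 and RPLP1 changed by -1.71 and -1.62, both called. RPL5 fell, with a log2 change of -1.81 ± 0.14 (SE, limma adjusted p = 5.1e-10). RPL31, RPL7, RPL15 and RPL14, all large subunit proteins, were not called in SP14. RPL31, with 2439.5, 2426, 2371 and 1119.9 TPM at day 12, had 2269 and 2187 TPM in SP6A and 2023 and 2214 TPM in SP14, and RPL15 had 1897 and 2016 TPM and 1983 and 1957 TPM. Both sat inside the spread of the day 12 libraries only through replicate 4, since the other 3 day 12 libraries lay above every SP6A and SP14 library in both genes.

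SP14 against SP6A gave 0 members up and 3 down by limma, over 0.0224% up and 0.0374% down of all genes. At an unadjusted p under 0.05 the members' counts were 0 and 52, with no all-gene share at that threshold to set beside them. The 3 called members were RPS2 (log2 change -1.20 ± 0.20, SE, limma adjusted p = 0.0133), RPS12 (log2 change -0.99 ± 0.15, SE, limma adjusted p = 0.00765) and RPS16 (log2 change -0.88 ± 0.16, SE, limma adjusted p = 0.0289), all of the small subunit. RPS12 had 792 and 694 TPM in SP6A and 389 and 358 TPM in SP14, and RPS16 1043 and 1049 TPM and 569.8 and 563 TPM. With 2 libraries a group these calls lean on each library: all 3 were lost without SP6A replicate 1 (adjusted p from 0.237 to 0.291) or SP14 replicate 2 (0.107 to 0.219), and the count was 1 without SP6A replicate 2. RPS16 was also lost without SP14 replicate 1 (0.169), and under median-ratio scaling RPS2 (0.0633) and RPS16 (0.104) were lost. The erythroid markers summed to 359.8 to 386.6 TPM in SP6A and 358.7 to 390.2 TPM in SP14, with 1 of 12 and 1 of 12 at 0, and those of dividing cells to 563.3 to 607.8 TPM and 611 to 648.2 TPM. The granulocyte progenitor markers summed to 579.8 to 750.9 TPM at day 12, 1434 to 1486 TPM in SP6A and 1551 to 1632 TPM in SP14. In the same order the lymphoid markers summed to 205.7 to 237.7 TPM, 42.96 to 44.97 TPM and 46.17 to 50.2 TPM. The endothelial markers summed to 71.24 to 130.9 TPM, 369.7 to 379.7 TPM and 333.8 to 356 TPM, with 3, 4 and 4 of 11 at 0. Single genes of the lists went against their sums. The endothelial marker CDH5 had means of 2.83, 1.375 and 1.40 TPM. Of the granulocyte progenitor list MPO had 19.15, 0.325 and 0.655 TPM and AZU1 9.46, 1.38 and 1.105 TPM. The sums are therefore no count of cells. The part of any such cells in the comparisons with day 12 was not tested.

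The E. coli libraries, which have no day, were set against the average of the 4 unexposed 3D groups (days 12 to 23, no FBS). Of the members 1 rose and 70 fell, over 13.8% up and 42.7% down of all genes, with a median of -1.14 against -0.84. The 2 libraries differed, and array weights, which give less weight to libraries that agree less, left 0 up and 32 down. Over all 13384 genes array weights left 161 up and 940 down. Mitochondrial transcripts took 17.2 and 25.2% of the TPM of the E. coli libraries and 4.2 to 10.9% elsewhere. RPL31 had 392 and 441 TPM with E. coli, under every unexposed library (log2 change -2.27 ± 0.17, SE, limma adjusted p = 2.14e-10). In none of the other 10 comparisons was it called. RPL27, a large subunit protein, had 287 and 154 TPM, against 1833, 1934, 1885 and 1286 TPM at day 12 (log2 change -2.39 ± 0.16, SE, limma adjusted p = 2.52e-11). RPS14, the gene lost in the 5q deletion syndrome of bone marrow, had 637 and 394 TPM, against 3689, 3349, 3223 and 1950.5 TPM at day 12 (log2 change -2.32 ± 0.16, SE, limma adjusted p = 3.83e-11). RPS19 had 739 and 991 TPM and changed by -2.10. RPL39L, among the 70, is listed at 0 in both E. coli libraries, and no fold is given for it.

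RPS27 had 1989.7 and 2110.3 TPM with E. coli (log2 change -1.07 ± 0.10, SE, limma adjusted p = 3.93e-09), and RPS27L 104 and 48.4 TPM (log2 change -1.81 ± 0.22, SE, limma adjusted p = 2.51e-07, lost under array weights). The member that rose was RPS2, with 1782 and 2279 TPM (log2 change 0.41 ± 0.15, SE, limma adjusted p = 0.0231). These libraries lay among the unexposed ones, which run from 949.7 TPM at day 19 to 3000.8 TPM at day 12, and the call was lost without the filter and under array weights. RPLP2 had 1562 and 351 TPM: replicate 1 lay at the level of the day 12 libraries and replicate 2 under all unexposed libraries. Its change of -0.85 ± 0.28 (SE, limma adjusted p = 0.0128) turned to 0.22 without replicate 2. Members not called included RPL28, RPL23, RPL10, RPL9, RPSA, RPS4X and RPL36A. The erythroid markers summed to 0 to 3485 TPM in the E. coli libraries and the dividing cell markers to 25 to 26.99 TPM, with 3 of 10 of the latter at 0. Their part was not tested.

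Other members with a known role or a particular level changed by unlike amounts. RPS6, the small subunit protein that S6 kinase phosphorylates, had 1320.2, 1240.4, 1301 and 845 TPM at 3D day 12 and 789, 763 and 695 TPM at day 16 (log2 change -0.63 ± 0.14, SE, limma adjusted p = 0.00254). With SP14 it had 424 and 407 TPM, under all day 12 libraries (log2 change -1.48 ± 0.16, SE, limma adjusted p = 1.47e-07). RPS27A, whose product is made as a fusion with ubiquitin, had 1681, 1329.8, 1309 and 896 TPM at day 12 and 362 and 351 TPM in SP14 (log2 change -1.83 ± 0.17, SE, limma adjusted p = 1.34e-08). RPL22, an RNA-binding large subunit protein, had 197, 195, 191 and 161 TPM at day 12 and 44.8 and 64.2 TPM in SP14 (log2 change -1.77 ± 0.31, SE, limma adjusted p = 0.000103). RPL13A, a large subunit protein known from the interferon-gamma response of myeloid cells, had 1806, 1678, 1704 and 1416 TPM at day 12, 868 and 716 TPM in SP14 (log2 change -1.06 ± 0.14, SE, limma adjusted p = 2.53e-06) and 872 and 541 TPM with E. coli (log2 change -1.13 ± 0.12, SE, limma adjusted p = 5.76e-08). In each of these 4 genes the SP14 libraries lay apart from those of day 12. RPL39, the close relative of RPL39L that lines the exit tunnel, had 2248, 2096, 2186 and 1127 TPM at day 12 and 732 and 149 TPM with E. coli (log2 change -2.25 ± 0.30, SE, limma adjusted p = 1.39e-06). RPL10, which is placed last on the large subunit, had 3233, 3053, 3022 and 1671 TPM at day 12 and 1950.0, 1889 and 1839 TPM at day 23 (log2 change -0.49 ± 0.16, SE, limma adjusted p = 0.0229), where replicate 4 of day 12 lay under all day 23 libraries and the others above. That call was lost without the filter (adjusted p = 0.0669), without clone-named and mitochondrial genes (0.0842), without replicate 1, 2 or 3 of day 12 (0.0725 to 0.081) and without replicate 2 or 3 of day 23 (0.0589 and 0.073). RPS4X had 443 and 367 TPM with E. coli, inside the day 12 range of 301 to 454 TPM, and was not called there (log2 change 0.33 ± 0.14, SE, limma adjusted p = 0.053). It was called higher under median-ratio scaling (adjusted p = 0.00278), without clone-named and mitochondrial genes (0.0117), with a pseudocount of 0.1 (0.0437) and in 5 fits that left out 1 library (0.0288 to 0.0496).

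Relatives of the members were counted in the same fits. Of 18 members known as Diamond-Blackfan anaemia genes, 2 rose and 7 fell in 3D against 2D and 14 fell at day 16. Of these 18 genes, 14 fell with FBS at day 23, 16 in SP14 and all 18 with E. coli. In the same order 28, 51, 69, 75 and 70 of all 79 members fell, and 5 rose in 3D against 2D. Over all genes the shares were 13.5% up and 25.2% down in 3D against 2D, 6.65% down at day 16, 5.11% down with FBS at day 23, 13.1% down in SP14 and 42.7% down with E. coli, and the counts that follow stand against these. The 7 cytosolic ribosomal proteins whose symbols lie outside the rule gave 1 up and 1 down in 3D against 2D, 5 down at day 16 and 6 down in SP14. Among them RPL22L1, the paralogue of RPL22, had 148 ± 46.3 TPM (SD, n = 4) at day 12 and 37.1 ± 2.21 TPM (SD, n = 3) at day 16 (log2 change -1.90, limma adjusted p = 0.0145), and FAU, the ubiquitin-like precursor of RPS30, changed by -1.34 (limma adjusted p = 7.31e-05) in SP14. The 78 mitochondrial ribosomal proteins, which build the separate ribosome of that organelle, counted 32 up and 14 down in 3D against 2D with a median of 0.34. At day 16, 14 of them fell, and with E. coli 69 fell. Of 33 ribosome biogenesis factors 12 rose and 5 fell in 3D against 2D and 2 rose and 14 fell in SP14 (18.1% of all genes rose there). Their RNA methyltransferase FBL changed by -1.29 (limma adjusted p = 7.37e-05) in 3D and -2.87 (limma adjusted p = 6.1e-08) in SP14, and the histone chaperone NPM1 by 0.66 (limma adjusted p = 0.00121) in 3D. Of 19 elongation factors and other TOP genes 7 fell at day 16, 8 fell with FBS at day 23 and 10 fell in SP14. EEF1A1, which delivers transfer RNA to the ribosome, was not called at day 16 (log2 change -0.18, limma adjusted p = 0.322), and EEF2, which moves the ribosome along, fell in 3D (log2 change -1.38, limma adjusted p = 0.0286) and rose at day 23 (log2 change 1.65, limma adjusted p = 0.000787). At 3D day 12 EEF2 had 175, 225, 229 and, in replicate 4, 49.2 TPM, all under the libraries of 2D and of day 23. Replicate 4 thus adds to the size of both changes. Of 8 snoRNA host genes 2 rose with FBS at day 16, where 8.09% of all genes rose, and 3 fell with it at day 23. Of 12 regulators of TOP translation and mTOR 1 rose at day 16 and 3 rose and 2 fell in SP14, shares near those of all genes (10.2% up at day 16). Among members whose table entry has 1 start, the 44 with a pyrimidine run had a median of -1.48 in SP14 and the 9 without one -1.13. The corresponding medians were -0.65 and -0.54 at day 16 and -1.15 and -1.46 with E. coli.

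The single-cell libraries show the members by cell class. After filters 6551 cells remained at day 7, 11292 at day 9 and 7592 at day 12. The median cell had 24179, 13032 and 16617 UMIs (unique molecular identifiers, 1 per captured RNA molecule). The 3 pairs of libraries shared 23, 17 and 24 cell barcodes. With 1 library a day no test is possible, and intervals cover counting error only. The 79 members took 17.97% of the UMIs at day 7 (95% exact binomial interval 17.967 to 17.979), 15.49% at day 9 (15.484 to 15.495) and 15.88% at day 12 (15.877 to 15.888). Cells were clustered without the members among the variable genes, and clusters were named from marker lists. Erythroid-like cells had the highest share of the named classes and endothelial-like cells the lowest at days 7 and 9. Erythroid-like cells had 23.7, 22.3 and 23.1% at days 7, 9 and 12 (1218, 918 and 266 cells). Endothelial-like cells had 10.7, 9.00 and 7.91% (1639, 1896 and 287 cells). Megakaryocyte-like cells had 21.0, 15.97 and 7.95% (934, 1660 and 243 cells), with a median depth of 31743, 14096 and 11119 UMIs and a mitochondrial share of 3.28, 4.36 and 3.73%. At a finer clustering their share was 12.3% at day 9 and 5.81% at day 12. At that setting 1 cluster near the megakaryocyte markers, left unnamed, had 826, 785 and 21 cells of days 7, 9 and 12 and a share of 19.6%. The cluster that kept the name had 15, 761 and 220 cells and a share of 11.3%, so cells of days 7 and 12 lay mostly in different clusters. Macrophage-like cells at day 12 had 13.1% (2095 cells in 2 clusters, 5.31% mitochondrial), granulocyte progenitor-like cells 12.4% (520 cells) and stromal-like cells 19.6% (3528 cells).

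**Figure D5:**
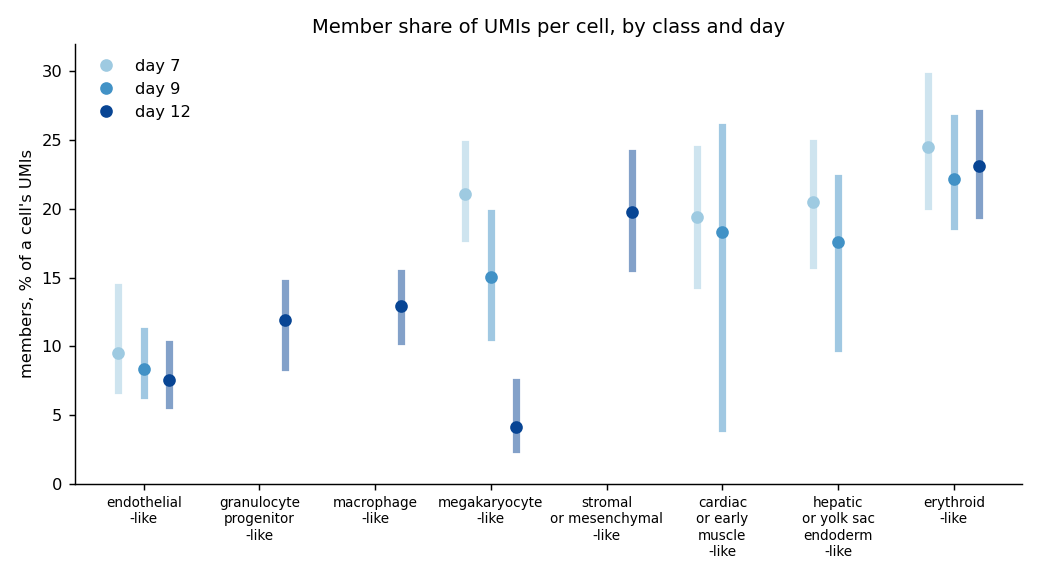
Points are the median over cells of the members' percent of a cell's UMIs in each named class, bars span the quartiles over cells (not replicates), and colours mark days 7, 9 and 12. No cluster kept the cardiac or early muscle name at the finer clustering. Erythroid-like medians lie between 22.2 and 24.5%, endothelial-like medians between 7.51 and 9.51%, and the megakaryocyte-like median is 21.1% at day 7 and 4.15% at day 12, days whose cells near these markers lay mostly in different clusters at the finer clustering.

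Within these classes single members differed from the rest. RPS10, a small subunit protein, had 920 CPM (counts scaled to a common library total) at day 7, 434 CPM at day 9 and 947 CPM at day 12, a ratio of 0.472 for day 9 to day 7 where the median ratio of 78 members was 0.837. It was lower at day 9 in each named class with cells at both days: 240 against 522 CPM in endothelial-like, 626 against 1209 CPM in erythroid-like, 466 against 1089 CPM in megakaryocyte-like, 514 against 996 CPM in cardiac or early muscle-like and 630 against 1129 CPM in hepatic or yolk sac endoderm-like cells. The cardiac or early muscle name rests on 5 of 9 markers, and no cluster bore it at the finer clustering. ACTC1, a gene of that marker list, led an unnamed cluster. RPL37A had 3078 CPM at day 9 and 1746 CPM at day 12. RPS10 was named after its values were seen. Day 12 was processed with another version of Cell Ranger than days 7 and 9, so version and day cannot be told apart for comparisons with day 12. RPS27L ran against the other members by class. At day 12 it had 211 CPM in macrophage-like, 501 CPM in endothelial-like and 595 CPM in megakaryocyte-like cells. It was the only member of 79 that was higher in either of the last 2 than in macrophage-like cells, where the median ratios were 0.597 and 0.595. In endothelial-like cells it went from 292 CPM at day 7 to 342 CPM at day 9 and 501 CPM at day 12, and in megakaryocyte-like cells, whose day 7 and day 12 cells lay mostly in different clusters at the finer setting, from 226 to 262 and 595 CPM. In erythroid-like cells it had 226, 208 and 234 CPM. Against macrophage-like cells, 77 of 79 members were higher in erythroid-like cells, with a median ratio of 1.69, among them RPS12 at 6324 against 2253 CPM. RPL39L (3.10 against 53.0 CPM) and RPS26 (376 against 538 CPM) were lower there. In stromal-like cells 76 were higher, with RPS27 at 3197 against 1406 CPM.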

How the data were processed

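Bulk TPM were deposited by the authors as 1 combined table (polyA, SMART-seq2 per the labels). Per the submitters' processing notes the series used, among others, HISAT2, DESeq2, HTSeq 0.11.1 and Trim Galore 0.4.4. The build is hg38 per the labels. The tool behind the TPM is not given in the labels or headers. Single-cell counts (UMIs) were made by the authors with Cell Ranger 7.1.0 (days 7, 9) and 7.0.0 (day 12) per the file headers.

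Differences were tested with limma 3.58.1 (R 4.3.3, eBayes with trend) on log2(TPM + 1), for genes with a mean of at least 1 TPM, adjusted by Benjamini-Hochberg over all genes at 0.05. One fit held the 8 day 12 libraries and one the 28 3D libraries. The script was tested on simulated data with 200 changed genes.

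Cells passed 1000 UMIs, 500 genes and at most 15% mitochondrial counts. Scrublet (expected rate 0.06) removed 216, 435 and 369 doublets. Scanpy 1.11.5 used 2000 variable genes without members, 30 components, 15 neighbours and Leiden resolution 0.5, giving 17 clusters of 25435 cells. A name needed 50 cells and at least 3 raised markers (2-fold, 20 CPM), no fewer than the markers of that list that were not raised. A cluster stayed unnamed where its leading genes held more markers of another list. It also stayed unnamed where they held none of its own list, unless nearly all of that list was raised. Ratios need 50 CPM.

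Members and lists were chosen with earlier results of these data known. Members were named by rule: up to 5 non-overlapping calls a direction and comparison, the highest and lowest means, and a fixed set (some members are not reported here) with the stalk, Diamond-Blackfan and paralogue genes.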

Additional observations from a re-analysis of the deposited data

Results flagged for a closer look

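In the 2D day 12 group, 6 of 79 members had 1 library far from the other 3, by a gap beyond Dixon's critical value at 95%, and in 3D day 12 there were 26 of 79, all with replicate 4 as the lowest. Chance marks about 1 in 20 groups if these are independent. The 26 members share 1 low library, so their number cannot be read against that rate. For the summed share of the members, the gap over the range was 0.82 in 3D day 12 and 0.642 in 2D. Both lay under the critical value, so the share itself marked no library. The named members marked in 2D were RPS27 at 3050.6 TPM in replicate 4, RPS19 at 6495 TPM in replicate 1 and RPS6, the kinase substrate of the small subunit, at 1213 TPM in replicate 3. In 3D day 12 replicate 4 had 1671 TPM of RPL10, 1127 TPM of RPL39, 1226 TPM of RPL11 and 1121 TPM of RPL30. It also had 845 TPM of RPS6, 1016 TPM of RPS26, 259 TPM of RPL28, 301 TPM of RPS4X and 161 TPM of RPL22.

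The FBS difference changed between days for the members. From day 16 to day 19, 1 member was called down, RPL15 (-0.98 ± 0.16, SE, limma adjusted p = 0.00415). From day 16 to day 23, 1 was called up and 50 down, with RPS28 (-2.31), RPL9 (-2.44), RPL34 (-1.28, limma adjusted p = 8.28e-05) and RPL41 (-1.65, limma adjusted p = 0.000111). From day 19 to day 23, 2 were called up and 29 down, with RPS28 (-2.03), RPL15 (1.26, limma adjusted p = 1.36e-05), RPL9 (-2.09) and RPL41 (-1.33) among them.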

How the results depend on the processing

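Depth of the bulk libraries is unknown, which limits what low members such as RPL39L can show, and groups of 2 lean on each library. Under median-ratio scaling 15 members rose and 17 fell in 3D against 2D (2427 and 2612 of 13131 genes). With that scaling 0 members rose at day 19, 1 rose with FBS at day 19 and 2 rose with E. coli (679, 1762 and 2124 of 13384 genes). Falls then numbered 73 at day 16, 61 at day 19 and 77 in SP6A (1471, 1192 and 2150 genes). Without clone-named and mitochondrial genes 14 rose in 3D against 2D (2242 of 13113 genes) and 8 at day 23 (1615 of 13366 genes). Under that setting 7 rose with FBS at day 16 (1278 genes), and 4 rose and 28 fell with FBS at day 19 (2170 and 1358 genes). Also under it 2 rose with E. coli (1923 genes) and 8 fell in SP14 against SP6A (12 genes). With a pseudocount of 0.1, 2 rose with E. coli (1711 of 13384 genes). Without a filter 3 rose in 3D (1571 of 23160 genes), 9 fell in SP14 against SP6A (528 of 31520 genes) and 0 rose with E. coli (4046 genes). Without the E. coli libraries 2 rose with FBS at day 19 (2439 of 13348 genes) and 1 with FBS at day 23 (1964 genes). In SP14 against SP6A 12 then fell (25 genes), and 62 fell at day 16 and 55 at day 19 (1332 and 1264 genes). Array weights left 0 up and 32 down with E. coli, against 161 up and 940 down of 13384 genes. With the replicate block 7 rose with FBS at day 16, 2 with FBS at day 19 and 2 with E. coli (1054, 1672 and 1775 of 13384 genes). In SP14 against SP6A 10 then fell (13 genes). The block took the falls to 68 at day 16, 64 at day 19, 48 at day 23 and 71 in SP6A (801, 693, 1728 and 1320 genes). Same-numbered libraries did not deviate together (correlations from -0.124 to 0.035), so numbers pair nothing here. Median-ratio scaling took the share of all calls that were increases from 34.9 to 48.2% in 3D against 2D, from 60.5 to 34.2% at day 16, from 52.2 to 36.3% at day 19, from 63.8 to 48.2% with FBS at day 23, from 60.1 to 42.9% in SP6A and from 57.9 to 43.0% in SP14.

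Leaving out 1 library gave these ranges of members. In 3D against 2D, 3 to 25 rose and 22 to 29 fell, with 25 up without replicate 4 of 3D day 12 (1512 of 13189 genes). Over all genes 1394 to 1683 rose and 2930 to 3148 fell in these fits. Falls ranged from 45 to 69 at day 16, 39 to 65 at day 19, 28 to 48 at day 23, 47 to 72 in SP6A and 70 to 75 in SP14. Increases were 0 to 1 at day 19 and 4 to 6 at day 23. Of all genes 640 to 810 fell at day 16, 542 to 705 at day 19 and 1558 to 1858 at day 23. Increases over all genes were 569 to 809 at day 19 and 1099 to 1259 at day 23. With FBS at day 16, 3 rose and 9 to 11 fell, against 734 to 850 and 892 to 1240 of all genes. With FBS at day 19, 0 to 1 rose and 34 to 44 fell, against 1322 to 1524 and 1116 to 1600. With FBS at day 23, 65 to 69 fell, against 508 to 567. In SP14 against SP6A 0 to 2 fell, and with E. coli 1 to 2 rose and 67 to 72 fell. The lone sample of a group of 2 was then assumed to vary like the other groups. RPLP2 with E. coli turned to 0.22 without E. coli replicate 2 and was at -1.929 without replicate 1. Over 3592 values of 276 pairs of a named member and a comparison, 3336 kept direction and call, 164 lost and 91 gained the call and 1 turned. The single-cell share was 17.89, 15.38 and 15.81% with all barcodes, 17.91, 15.4 and 15.82% with doublets kept and 18.33, 15.85 and 16.48% without mitochondrial counts at days 7, 9 and 12.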

Other observations

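Clusters left unnamed also differed in ribosomal protein share. A cluster of 210 cells led by SLC34A2 and SLPI, 207 of them from day 12, had 27.3% of its UMIs in the members. A cluster of 582 cells led by CD3D and RUNX3 had 20.8%. A cluster of 243 cells led by CLC and PRG3, genes of eosinophil granules, had 16.6%, beside 12.7% in the granulocyte progenitor-like cluster. The largest unnamed cluster, 3890 cells led by ACTC1 and BMP10, had 14.6%. These are values of 1 library a day, with no test.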
